A study of Marchantia polymorpha with 9 samples.

Results

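MpLEA-like9 (Mp2g26450), MpLEAL7 (Mp2g26410), MpLEAL6 (Mp5g05120) and MpLEA-like2 (Mp1g01170) are 4 genes of the liverwort Marchantia polymorpha that carry names of late embryogenesis abundant (LEA) proteins and lie outside a cluster of LEA-like genes on chromosome 6. They were found by these 4 gene identifiers among the 20574 genes of the deposited tables, which hold 72 genes with a LEA or dehydrin name, 14 of them in the chromosome 6 cluster. The 4 were chosen by their measured level in these same libraries, which was higher in mutants of MpB-GATA1 than in the wild type. Their difference from the wild type is therefore given as a description, without a test.

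LEA proteins are hydrophilic, largely disordered proteins that are known from the drying seeds of flowering plants, and related proteins occur in vegetative tissue of bryophytes. They are thought to protect proteins and membranes when cells lose water. In land plants many LEA genes are switched on by abscisic acid (ABA), a hormone of water deficit, through receptors that release protein kinases from inhibition by phosphatases, so that the kinases activate transcription factors such as ABI5 and ABI3. In Marchantia, ABA treatment is known to raise desiccation tolerance and LEA transcripts. What each of the 4 proteins does is not known from the sources used here.

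The libraries came from whole thallus plants, the flat gametophyte body, at 3 weeks of age. The wild type was BoGa, the mutant lines carried the allele Mpb-gata1-1 or the allele Mpb-gata1-2, and each of these groups had 3 libraries, and the plants of the 3 groups received no treatment and grew on the same Gamborg's B5 medium at 22 °C with 16 h of light and 8 h of darkness. GATA factors bind DNA through a zinc finger, and those of the B class are known for promoting greening in flowering plants. Each library pooled 3 plants, so the p-values below measure the spread between such pools. The labels name 1 line for each allele and do not describe the lesions, so an effect of the mutation and of the genetic background of a line cannot be told apart.

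The libraries held 24823337 to 44133919 gene reads, and 14667 genes had enough reads to be tested. The level of 22 genes of the male V chromosome, set to their mean in Mpb-gata1-2, was 0.0172 to 0.0253 in Mpb-gata1-1, 0.946 to 1.03 in Mpb-gata1-2 and stood at 0.368, 0.533 and 0.682 in the BoGa pools. This level and the allele cannot be told apart when the mutants are compared with each other. Its part in the levels of the 4 LEA genes was not tested.

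Each of the 4 genes had a low level in BoGa and a level about an order of magnitude higher in the mutants. Levels are given first as CPM, reads scaled to a common library size with TMM factors, which compare libraries but not genes of different length. MpLEA-like9 lies on chromosome 2 (28993954 to 28995320, plus strand, 1367 bp in the deposited tables). Replicates 1 to 3 of BoGa gave 2.75, 1.48 and 1.53 CPM, those of Mpb-gata1-1 gave 42.3, 27.1 and 32.4 CPM, and those of Mpb-gata1-2 gave 54.5, 66.3 and 54.1 CPM. The 3 groups did not overlap, with each Mpb-gata1-2 library above each Mpb-gata1-1 library. The group levels were 1.92 ± 0.719, 33.9 ± 7.76 and 58.3 ± 6.89 CPM (SD, n = 3). The fitted log2 change was 4.14 for Mpb-gata1-1, 4.92 for Mpb-gata1-2 and 4.53 ± 0.23 (SE) in the mean of both mutants, a 23.1-fold difference from BoGa.

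MpLEAL7 lies on the same stretch of chromosome 2 (28965220 to 28966791, plus strand, 1572 bp). Replicates 1 to 3 of BoGa gave 2.24, 2.14 and 1.97 CPM, those of Mpb-gata1-1 gave 55.2, 35.7 and 38.1 CPM, and those of Mpb-gata1-2 gave 34.1, 42.8 and 35.8 CPM. Here the mutants overlapped each other, and the highest library was Mpb-gata1-1 replicate 1. The group levels were 2.12 ± 0.137, 43.0 ± 10.6 and 37.5 ± 4.62 CPM (SD, n = 3), with fitted log2 changes of 4.34 for Mpb-gata1-1, 4.15 for Mpb-gata1-2 and 4.25 ± 0.19 (SE) in their mean, which is 19.0-fold. Only 45.9% of the MpLEAL7 reads were unique to it. Mp2g26420, an 899 bp gene on the same strand, lies wholly inside its region. Mp2g26420 itself was given 0 reads in the BoGa and Mpb-gata1-1 libraries and 4 reads, none unique, in those of Mpb-gata1-2. Counted by unique reads, MpLEAL7 had 40, 34 and 30 reads in the BoGa libraries, 657, 581 and 803 in those of Mpb-gata1-1, and 411, 654 and 584 in those of Mpb-gata1-2. The log2 change in the mean of both mutants was then 4.16.

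MpLEAL6 lies on chromosome 5 (5564929 to 5566764, plus strand, 1836 bp). Replicates 1 to 3 of BoGa gave 1.40, 1.29 and 1.23 CPM, those of Mpb-gata1-1 gave 24.8, 17.0 and 19.1 CPM, and those of Mpb-gata1-2 gave 26.0, 30.6 and 28.7 CPM. The groups did not overlap, although the highest Mpb-gata1-1 library came close to the lowest Mpb-gata1-2 library. Group levels were 1.31 ± 0.0885, 20.3 ± 4.03 and 28.4 ± 2.30 CPM (SD, n = 3). The fitted log2 change was 3.95 in Mpb-gata1-1, 4.44 in Mpb-gata1-2 and 4.19 ± 0.15 (SE) in their mean, which is 18.3-fold.

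MpLEA-like2, the longest of the 4 gene regions, lies on chromosome 1 (1370144 to 1373707, plus strand, 3564 bp). Replicates 1 to 3 of BoGa gave 3.59, 2.83 and 2.71 CPM, those of Mpb-gata1-1 gave 25.8, 19.96 and 22.8 CPM, and those of Mpb-gata1-2 gave 30.6, 33.7 and 32.9 CPM. The groups did not overlap. Group levels were 3.04 ± 0.476, 22.9 ± 2.93 and 32.4 ± 1.64 CPM (SD, n = 3). The log2 change was the smallest of the 4, at 2.91 in Mpb-gata1-1, 3.41 in Mpb-gata1-2 and 3.16 ± 0.12 (SE) in their mean, which is 8.95-fold. All reads of MpLEA-like9, MpLEAL6 and MpLEA-like2 were unique to their gene.

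**Figure D1:**
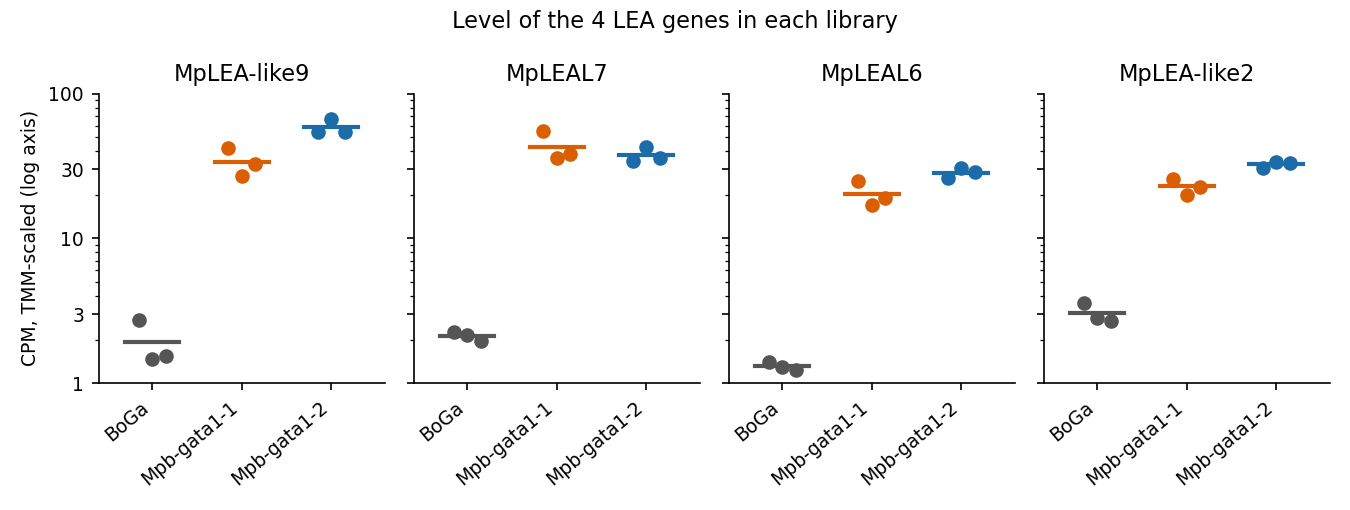
Level of each of the 4 LEA genes by library, in TMM-scaled CPM on a log axis; points are the 3 libraries of a group, in the order of replicates 1 to 3, and bars are group means. The BoGa libraries lie between 1.23 and 3.59 CPM and the mutant libraries between 17.0 and 66.3 CPM, and only for MpLEAL7 do the mutants overlap each other.

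For each of the 4 genes all 6 mutant libraries lay above all 3 BoGa libraries, a pattern that 16.4% of the tested genes shared and on which these genes had been picked. Since the genes were chosen on this difference, that count is no test of it. For scale, 22.7% of all tested genes were called higher in the mean of both mutants by the edgeR quasi-likelihood test at an adjusted p under 0.05. Against the same BoGa libraries, 46 percent of all tested genes were called in either direction with Mpb-gata1-1 (23 percent higher) and 46.4% with Mpb-gata1-2 (21.7% higher). A called rise of at least 3 on the log2 scale was found for 1.01% of the tested genes, 148 in number. Of these 29 were LEA genes, a count that includes the 4 picked ones. By size of rise MpLEA-like9, MpLEAL7, MpLEAL6 and MpLEA-like2 stood at ranks 55, 72, 80 and 144 among all tested genes, and at ranks 5, 7, 10 and 29 among the 67 tested LEA genes. In bulk samples such as these, a change in the share of cells that hold a transcript cannot be told apart from a change in its amount per cell.

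To set the genes beside each other, levels per length are given as the deposited TPM values, a share of all transcripts, which divide by the whole gene region. In BoGa the order was MpLEA-like9 at 4.18 ± 1.67, MpLEAL7 at 3.99 ± 0.338, MpLEA-like2 at 2.53 ± 0.457 and MpLEAL6 at 2.11 ± 0.190 TPM (SD, n = 3), and neither the upper pair nor the lower pair in that order differed by more than their SDs. In Mpb-gata1-1 MpLEAL7 was first with 86.2 ± 19.1 TPM, within its SD of MpLEA-like9 with 78.2 ± 15.9. MpLEAL6 followed with 34.8 ± 6.03 and MpLEA-like2 with 20.2 ± 2.10 TPM. In Mpb-gata1-2 the order was MpLEA-like9 at 134 ± 13.8, MpLEAL7 at 75.3 ± 7.90, MpLEAL6 at 48.8 ± 2.96 and MpLEA-like2 at 28.7 ± 0.872 TPM, each step larger than the SDs. By these values, which count shared reads, the 2 genes of chromosome 2 were the more abundant per length in all 3 groups. Only 45.9% of the MpLEAL7 reads were unique, so its place in these orders and its percentiles rest in part on shared reads. In the Mpb-gata1-2 libraries it had 411, 654 and 584 unique reads, fewer than the 694, 1015 and 1129 of MpLEAL6. MpLEAL6 and MpLEA-like2, not apart by more than their SDs in BoGa, were apart in both mutants, with MpLEAL6 the higher by TPM. That order rests on the region lengths of 1836 and 3564 bp. By mean CPM, not corrected for length, MpLEA-like2 was the higher in each group (32.4 against 28.4 CPM in Mpb-gata1-2). Among the tested genes, MpLEA-like9 moved from percentile 22.8 of TPM in the wild type to percentiles 84.3 (Mpb-gata1-1) and 91.6 (Mpb-gata1-2). MpLEAL7 moved from 22.2 to 85.9 and 83.6, MpLEAL6 from 15.5 to 65.8 and 74.6, and MpLEA-like2 from 17.2 to 50.5 and 60.6.

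Summed over the 4 genes, the wild type, Mpb-gata1-1 and Mpb-gata1-2 stood at 8.38 ± 1.39, 120 ± 25.1 and 157 ± 14.8 CPM (SD, n = 3). In the same order this was 0.565 ± 0.0999%, 5.29 ± 0.660% and 6.26 ± 0.274% of the CPM of all LEA genes. All LEA genes together stood at 1484 ± 31.8, 2253 ± 184 and 2500 ± 132 CPM. The 4 genes were thus a small part of the LEA transcript pool in each group, and a larger one in the mutants. The makeup of the sum, which is not corrected for gene length and counts shared reads, also differed. In the wild type and then the mutants, Mpb-gata1-1 first, the share of MpLEA-like2 went from 36.3 to 19.2 and 20.7%, that of MpLEAL7 from 25.5 to 35.7 and 23.9%, and that of MpLEA-like9 from 22.4 to 28.2 and 37.2%. The share of MpLEAL6 was 15.8, 16.9 and 18.2%.

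Whether the alleles differed in the 4 genes was asked by comparing Mpb-gata1-2 with Mpb-gata1-1, a comparison that holds no BoGa library and was not used to pick them. MpLEA-like9, MpLEAL6 and MpLEA-like2 were higher in Mpb-gata1-2 and passed the test, where 14.9% of all tested genes were called higher and 30.9% were called in either direction. The log2 difference of MpLEA-like9 was 0.79 ± 0.18 (SE; 95% interval 0.39 to 1.19), a 1.73-fold difference with an adjusted p of 0.00826 by edgeR's quasi-likelihood test. That of MpLEA-like2 was 0.51 ± 0.11 (interval 0.27 to 0.74; 1.42-fold; adjusted p = 0.00466 by the same test). That of MpLEAL6 was 0.49 ± 0.12 (interval 0.22 to 0.77; 1.41-fold; adjusted p = 0.0119). The difference of MpLEAL7, -0.19 ± 0.15, missed the threshold (95% interval -0.52 to 0.14; adjusted p = 0.372), and by unique reads one of -0.28 (adjusted p = 0.240). For 3 of the 4 genes all Mpb-gata1-2 libraries lay above all Mpb-gata1-1 libraries, which held for 23.9% of the tested genes.

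Some of these calls rested on single libraries. MpLEAL6 did not pass without Mpb-gata1-1 replicate 3 (0.45, adjusted p = 0.0530 by edgeR) or without Mpb-gata1-2 replicate 2 (0.44, adjusted p = 0.0502). MpLEA-like9 passed without each library in turn but not when log2(TPM + 0.1) was tested with limma (0.80, adjusted p = 0.0506). The sign of MpLEAL7 turned without Mpb-gata1-1 replicate 1 (0.016, adjusted p = 0.933).

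The fitted difference of MpLEAL7 between the mutants had the opposite sign to those of the other 3 genes. Its course beside theirs was described within each library as the log2 ratio of its reads to theirs. The ratio of MpLEAL7 to MpLEA-like9 had means of 0.20 in BoGa, 0.34 for the Mpb-gata1-1 libraries and -0.64 for the Mpb-gata1-2 libraries. The ratio to MpLEAL6 was 0.69, 1.07 and 0.40, and that to MpLEA-like2 was -0.51, 0.89 and 0.21 in the same order. From Mpb-gata1-1 to Mpb-gata1-2 the 3 ratios dropped by 0.98, 0.68 and 0.69, and the 3 libraries of each mutant did not overlap in any of them. The exact two-sided permutation test gave p = 0.1 for each ratio, the smallest value that 3 libraries against 3 allow, and 0.1 after adjustment over the 3 ratios. With unique reads the drops were 1.07, 0.78 and 0.79. The 3 ratios share the reads of MpLEAL7 and were examined after its values had been seen.

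The spread between libraries was also shared among the 4 genes. In each group the same library was the highest for all 4, namely BoGa replicate 1, Mpb-gata1-1 replicate 1 and Mpb-gata1-2 replicate 2. The coefficient of variation over the Mpb-gata1-1 libraries was 22.9% for MpLEA-like9, 24.7% for MpLEAL7, 19.8% for MpLEAL6 and 12.8% for MpLEA-like2, against a median of 6.76% over all tested genes. Over the Mpb-gata1-2 libraries it was 11.8, 12.3, 8.09 and 5.06% in the same order, against a median of 6.05%. In Mpb-gata1-1 replicate 1, the library with the fewest reads, log2 CPM lay above the group mean by 0.34, 0.39, 0.31 and 0.18. In Mpb-gata1-1 replicate 2 the deviations were -0.30, -0.24, -0.24 and -0.19. Other LEA genes moved likewise, with 43 of 50 above their group mean in replicate 1 and 7 of 50 in replicate 2.

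**Figure D2:**
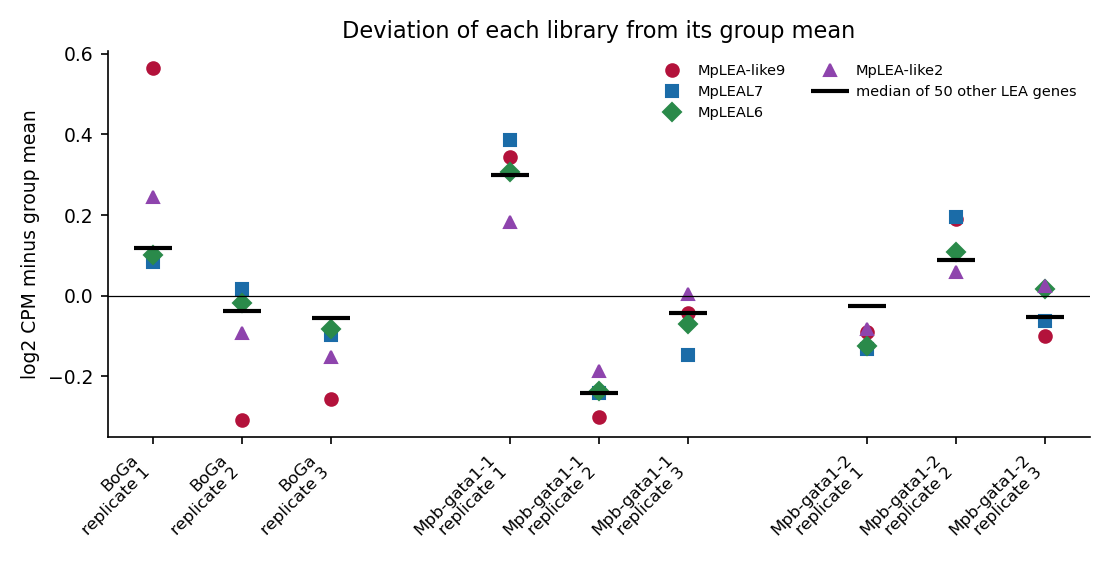
Deviation of log2 CPM from the group mean in each of the 9 libraries for the 4 LEA genes. In Mpb-gata1-1 replicate 1 all 4 lie above their mean by 0.18 to 0.39, and in Mpb-gata1-1 replicate 2 all 4 lie below it.

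As a description, Pearson's r of the deviations from the group means was 0.702 to 0.966 between pairs of the 4 genes over the 9 libraries, which share depth and composition. The median of the mean r to the 4 genes was -0.01 over the other genes, with a 95th percentile of 0.639, and 0.616 over 50 other LEA genes. The genes most like the 4 in this respect were MpLEA-like26 (0.924; 87.9% unique reads), Mp8g05130 (0.891) and Mp7g03340 (0.891). Mp7g03340 had no called difference from BoGa (log2 -0.04, adjusted p = 0.482 by edgeR), so its likeness was to the spread within groups alone. When the group differences were kept in, r between pairs of the 4 genes was 0.978 to 0.999 over the 9 libraries, which mainly shows the step from BoGa to the mutants. The closest other genes were then Mp8g05130 (0.994), MpLEA-like60, MpLEA-like61 and MpLEA-like48 (0.993 each) and Mp6g08810 (0.992), against a median of -0.02 over 12148 other genes. MpLEA-like60 and MpLEA-like61 had 77.6% and 76.9% unique reads.

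The rest of the LEA genes gave the setting of the 4. Of 68 LEA genes that are no member, 63 could be tested, and 47 rose and 7 fell in the mean of both mutants, where 22.7% and 26.1% of all tested genes were called higher and lower. Their median log2 change was 1.88, against -0.02 over all tested genes. The 12 tested genes of the chromosome 6 cluster all rose, with a median of 4.18, close to the values of MpLEAL7 and MpLEAL6. Of the 51 tested LEA genes outside the cluster and other than the 4, 35 rose and 7 fell, with a median of 1.01. Each of the 4 lay above that median, but they had been picked by this rise, so their place is no test. These lists were made with earlier results of these data known and are no independent evidence of a direction.

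The largest rises among the other LEA genes started from very few reads. MpLEA-like42 had 7 reads over the BoGa libraries, and its depth-scaled ratio to BoGa was 44.5 (95% interval 21.4 to 112, counting error only) for Mpb-gata1-1 and 76.6 (36.9 to 191) for Mpb-gata1-2. MpLEA-like52, outside the cluster, had 2 reads in BoGa, with ratios of 18.1 (4.68 to 155) and 69.3 (18.8 to 578). MpLEA-like43, MpLEA-like34 (84.6% unique reads) and MpLEA-like44 had fitted log2 rises of 5.20, 4.65 and 4.49, near the 4.53 of MpLEA-like9.

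Among the 7 LEA genes that fell, the changes were smaller than any of the 4 rises. MpLEA-like29 had mean levels of 69.4, 33.5 and 44.2 CPM in the wild type, Mpb-gata1-1 and Mpb-gata1-2 (log2 -0.85). The dehydrin gene MpDHN2 went from 44.9 to 32.4 and 26.6 CPM (-0.61), and MpLEA-like31 and MpLEA-like58 had log2 changes of -0.64 and -0.41. MpLEA-like33 fell by 0.63 in the mean of both mutants, but in Mpb-gata1-2 alone its difference did not pass (-0.17, adjusted p = 0.197 by edgeR).

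**Figure D3:**
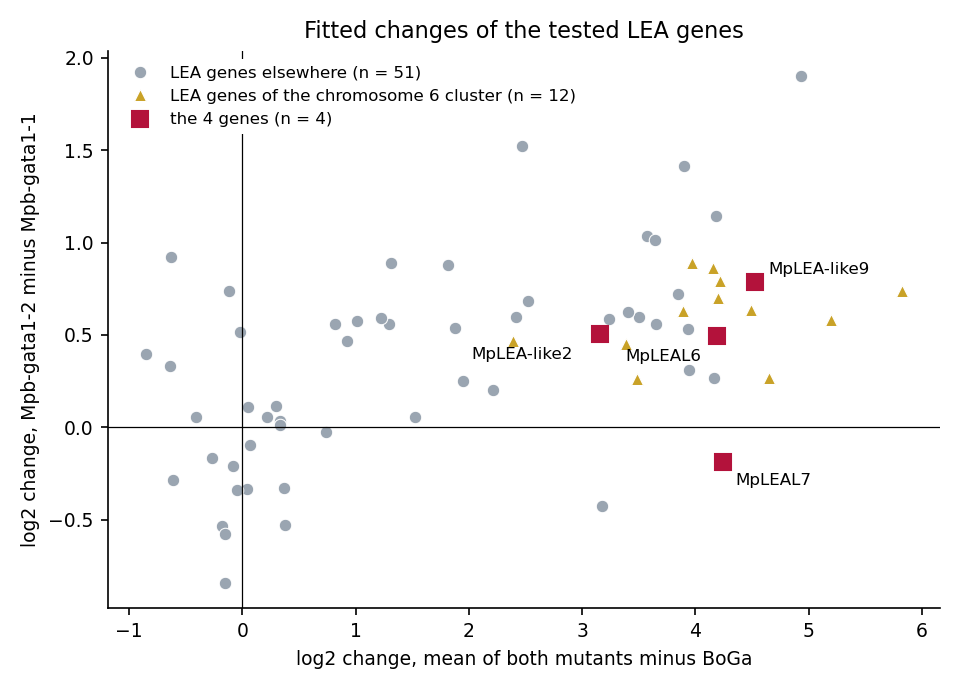
Fitted log2 change of the 67 tested LEA genes in the mean of both mutants minus BoGa (horizontal) and in Mpb-gata1-2 minus Mpb-gata1-1 (vertical); squares are the 4 genes, triangles the 12 genes of the chromosome 6 cluster and circles the other 51. MpLEAL7, at 4.25 and -0.19, is the one square below the horizontal zero line.

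Between the mutants, 24 of the 63 other LEA genes were higher and 8 lower in Mpb-gata1-2, against 14.9% and 16 percent of all tested genes, with a median log2 difference of 0.51 that lay near the values of MpLEAL6 and MpLEA-like2. These counts depended on the library left out: they were 33 and 5 without Mpb-gata1-1 replicate 1, 15 and 8 without replicate 2, 12 and 6 without replicate 3, 13 and 6 without Mpb-gata1-2 replicate 2, and 18 and 5 without Mpb-gata1-2 replicate 3.

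MpLEA-like9 and MpLEAL7 belong to a stretch of chromosome 2 in which every tested gene was higher in the mutants. It spans 33146 bp (28965220 to 28998365) from the start of MpLEAL7 to the end of MpLEA-like10 and holds 6 genes, of which 5 were tested and all 5 were called with a log2 rise of at least 1. Its ends were set after the values had been seen. MpLEA-like10 (Mp2g26460), another LEA gene, starts 1770 bp beyond MpLEA-like9. It had 105 BoGa reads, 974 Mpb-gata1-1 reads and 1426 Mpb-gata1-2 reads over the 3 libraries of each group and rose by 3.50 (log2). Mp2g26440, 1803 bp on the other side of MpLEA-like9, had 281, 3645 and 7454 reads (84.6% unique) and rose by 4.24. Mp2g26430 had 10, 36 and 198 reads and rose by 3.03. The symbols used here give no name for these last 2 genes.

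The genes just outside this stretch did not move with it. MpBHLH49 (Mp2g26400), on the MpLEAL7 side, had a log2 change of -0.01 (adjusted p = 0.922 by edgeR), and Mp2g26470, beyond MpLEA-like10, one of -0.10 (adjusted p = 0.398). Farther out on the MpLEAL7 side, Mp2g26370 had 17, 110 and 116 reads and rose by 2.75, and Mp2g26350 had 22, 0 and 49 reads. Mp2g26350 was at least 17.1-fold higher in Mpb-gata1-2 than in Mpb-gata1-1, from a floor of 3 reads over the group. Between the mutants, Mp2g26430, Mp2g26440 and MpLEA-like10 were higher in Mpb-gata1-2 by 2.52, 1.05 and 0.60 (log2; adjusted p = 2.75e-05, 0.00361 and 0.0138 by edgeR), as MpLEA-like9 was. Among the 5 tested genes of the stretch, MpLEAL7 was the 1 without a called difference between the mutants. MpLEA-like10 lost this call when replicate 2 or 3 of Mpb-gata1-1, or replicate 2 of Mpb-gata1-2, was left out.

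**Figure D4:**
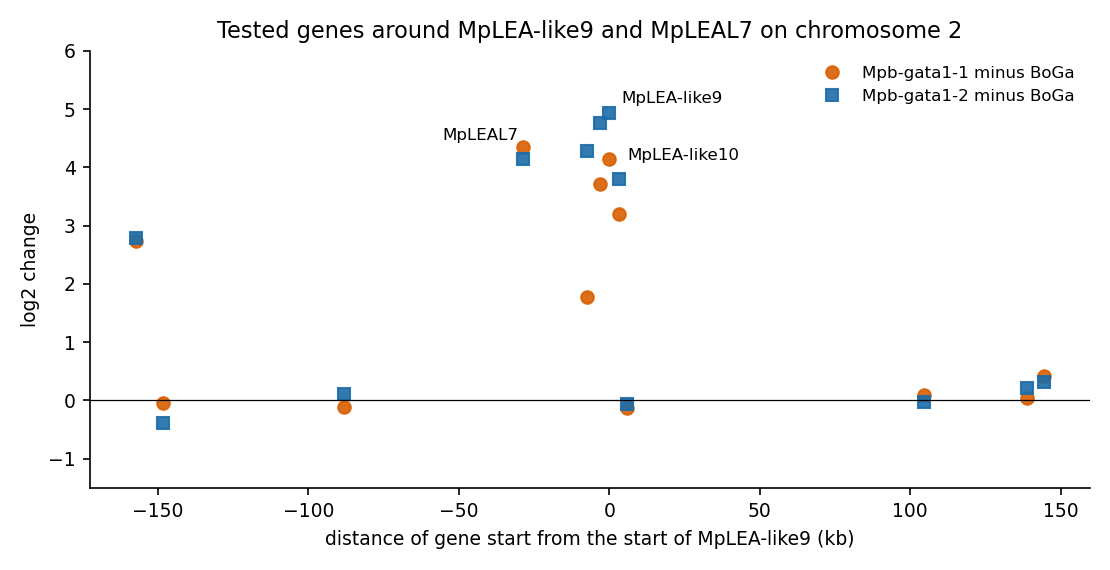
Fitted log2 change against BoGa for MpLEA-like9 and the tested genes within 10 genes of it, by distance of the gene start from that of MpLEA-like9 in kb. Circles are Mpb-gata1-1, squares Mpb-gata1-2, and genes with no reads in a group are left out. The 5 genes from MpLEAL7 to MpLEA-like10 lie between 1.77 and 4.92, and the genes next to them on both sides lie near 0.

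MpLEAL6 and MpLEA-like2 were not next to genes with rises of that size. Around MpLEAL6 on chromosome 5, 18 of the 20 nearest genes were tested, 10 were called higher and 2 lower, against 22.7% and 26.1% of all tested genes, and none passed a 2-fold change, their log2 changes ranging from -0.55 to 0.82. Around MpLEA-like2 on chromosome 1, 16 of 20 were tested, with 4 called higher and 3 lower. One of them passed 2-fold, Mp1g01150, which had 18, 56 and 45 reads and a log2 change of 1.46 with an adjusted p of 0.0443 by edgeR. That call was lost when any 1 library other than Mpb-gata1-1 replicate 2 was left out (adjusted p = 0.0597 to 0.119).

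The called genes of the lists for ABA signalling and ABA synthesis had smaller changes than the 4 LEA genes, except MpPP2C_A3. Of 15 genes in the signalling list, 10 were tested, with a median log2 change of 0.25. In the mean of both mutants 6 were called higher and 1 lower. That list also holds genes with CYP707 names, those of ABA-degrading enzymes. The 1 lower call, MpCYP707A, and the higher call of MpCYP707-like are among these. Over all tested genes 22.7% were called higher and 26.1% lower, with a median of -0.02, which is also the background of the small lists that follow. The kinase gene MpSNRK2A had mean levels of 212, 237 and 265 CPM in the 3 groups, a rise of 0.24 (adjusted p = 0.000909 by edgeR). The transcription factor gene MpABI5A rose by 0.25 (adjusted p = 0.00336). MpABI3A, named after its values were seen, rose by 0.33, from 64.0 to 84.7 and 76.7 CPM. MpCYP707-like, whose name is that of the ABA-degrading hydroxylases, rose by 0.51 (adjusted p = 3.8e-05), whereas MpCYP707A, named after its values were seen, fell by 0.62 (adjusted p = 0.0113). The largest ratio was that of MpPP2C_A3, a phosphatase gene of the kind that restrains ABA signalling. It had 3 reads over the BoGa libraries and 33 and 44 over those of the mutants, so that its depth-scaled ratios were 10.8 (95% interval 3.38 to 54.9, counting error only) and 15.1 (4.83 to 75.9).

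Of 3 tested genes of ABA synthesis, none was called higher and 2 fell, MpABA1 by 0.42 and MpABA4 by 0.22 (adjusted p = 0.0140 and 0.0288 by edgeR). The third, MpNCED, named after its values were seen, had only 36, 22 and 23 reads over the 3 groups. Its log2 change of -0.68 missed the threshold (adjusted p = 0.0742 by edgeR). MpABA4 had mean levels of 50.5, 38.0 and 49.3 CPM in the 3 groups, so that Mpb-gata1-2 was close to the wild type. The 2 calls depended on single libraries, since neither gene passed when BoGa replicate 1 was left out, and just 1 of them passed when BoGa replicate 2, Mpb-gata1-1 replicate 2, or replicate 1 or 3 of Mpb-gata1-2 was. Hormone levels were not measured.

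The genes of the short lipid droplet, antioxidant and heat shock lists did not all change alike. Of 2 tested lipid droplet genes, MpCALEOSIN rose by 4.22, as much as MpLEAL7 and MpLEAL6, while MpOLEOSIN, at 0.23, missed the threshold (adjusted p = 0.137 by edgeR). Of 16 tested antioxidant genes 2 were higher and 6 lower, with a median of -0.10. The catalase gene MpCAT1 rose by 4.54, near the value of MpLEA-like9, and the superoxide dismutase gene MpSOD1 by 0.38, whereas MpCAT2 fell by 0.41 and the ascorbate peroxidase gene MpAPX3 by 0.55. With limma on log2(TPM + 1) 4 were higher and 5 lower. Of 5 tested heat shock genes, all of them with HSP90 names, MpHSP90-2 rose by 0.18 and MpHSP90-4 fell by 0.49.

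Markers of organs that whole plants can carry were read beside the 4 genes. MpGCAM1, a regulator of gemma cup formation, had the largest change of the 6 gemma cup and gemma markers, a log2 rise of 1.93. The BoGa libraries gave 4.90, 4.68 and 5.88 CPM. The Mpb-gata1-1 libraries gave 19.5, 13.9 and 12.5 CPM, and the Mpb-gata1-2 libraries 27.7, 28.0 and 21.1 CPM. Its order over the groups was that of MpLEA-like9, MpLEAL6 and MpLEA-like2. Over the 6 gemma cup and gemma markers 3 were higher and 2 lower in the mean of both mutants. The lower ones were MpCLE1, with means of 16.7, 13.6 and 5.67 CPM in the 3 groups (log2 -0.93), and MpCLE2 (-0.34). The sum of all 6 was 127 to 156 CPM over the BoGa libraries, 157 to 171 over Mpb-gata1-1 and 177 to 186 over Mpb-gata1-2. MpKAR and MpKAI2A were its largest parts in each group (37.3 and 37.8 CPM in BoGa), so it weighs those 2 genes most. Of 2 tested rhizoid markers 1 was higher. Of 2 tested markers of sexual organs and of 3 tested sporophyte markers 1 each was lower, and none of the 4 tested oil body markers, the 1 air pore marker and the 1 meristem marker was called. The sporophyte marker was MpBELL1, which had 166, 1 and 175 reads over the 3 groups and was thus low in Mpb-gata1-1 alone, with a log2 difference of 0.10 in Mpb-gata1-2 (adjusted p = 0.810 by edgeR). The part of gemma cups and of the other organs in the levels of the 4 LEA genes was not tested.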

How the data were processed

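RNA sequencing libraries of 3 BoGa, 3 Mpb-gata1-1 and 3 Mpb-gata1-2 pools were made with a stranded kit, per the labels' protocols. The deposited tables give total and unique gene reads as counts, per the file headers, beside TPM and RPKM that the authors computed. The sources used here do not name the aligner, genome build, annotation or use of strand in counting, so positions are those of the deposited tables. Total reads include reads shared with other genes. No read counts of other samples were present. Names were matched by locus number to the RefSeq table of assembly MpTak2_v7.1 (17641 genes, 85.7%, with a symbol for 3091). All 4 members had the same length in both sources, as did 58 of the 72 LEA genes and 65.7% of the matched genes.

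Counts were tested with edgeR 4.0.16 in R 4.3.3: filterByExpr by group (14667 genes tested, 5907 not), TMM factors, and the quasi-likelihood test with robust estimation in 1 model of all 9 libraries, with group as its sole factor. P-values were two-sided, adjusted by Benjamini-Hochberg across the tested genes, and read at 0.05. The biological coefficient of variation was 9.08%. Intervals for ratios of few reads are exact 95% intervals and cover counting error only. Likeness used log2 CPM with a prior count of 2 and genes with a mean log2 CPM of at least 1.

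The members and gene lists were chosen with earlier results of these data known. Named are the members, the 5 largest rises and falls of other LEA genes, up to 4 called genes of each list in order of p, neighbours within 10 genes that overlap a member or passed with a log2 change of at least 1 in size, the 5 and 3 genes most like the members, and marker genes. No pair of replicates agreed within sampling noise (chi-square per degree of freedom 8.23 or more). The settings tried were DESeq2 1.42.0, upper-quartile or RLE factors, at least 1 CPM in 3 libraries or no filter, a block for the replicate number, a fit of only the groups compared, unique reads, limma 3.58.1 on log2(TPM + 1), log2(TPM + 0.1) or log2(RPKM + 1), an adjusted p under 0.01, and leaving out each library.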

Additional observations from a re-analysis of the deposited data

Results flagged for a closer look

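The results below differed between the alleles by the test of that difference itself, the log2 change in Mpb-gata1-2 minus Mpb-gata1-1 by edgeR's quasi-likelihood test with p adjusted over all tested genes. Of all tested genes 30.9% were called in this comparison, so a called difference is common here. MpLEA-like9, MpLEA-like2 and MpLEAL6 were higher in Mpb-gata1-2 by 0.79, 0.51 and 0.49 (adjusted p = 0.00826, 0.00466 and 0.0119). Of the other LEA genes named above that rose in the mutants, MpLEA-like52 differed by 1.90 (0.00146), MpLEA-like48 by 0.72 (0.00553), MpLEA-like10 by 0.60 (0.0138) and MpLEA-like26 by 0.57 (0.0208). Among all 63 tested LEA genes other than the 4, 24 were higher and 8 lower in Mpb-gata1-2. They include genes not named above, such as MpLEA-like4 at 1.52 (0.000233) and MpLEA-like7 at 1.42 (0.000192).

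Among the LEA genes named above that fell, MpLEA-like33 differed by 0.92 (9.96e-05), MpLEA-like29 by 0.40 (0.0418) and MpLEA-like31 by 0.33 (0.0176), each nearer to BoGa in Mpb-gata1-2. MpDHN2 differed by -0.29 (0.0175), farther from BoGa in Mpb-gata1-2. Among the neighbours on chromosome 2, Mp2g26430 differed by 2.52 (2.75e-05) and Mp2g26440 by 1.05 (0.00361), and Mp2g26350 was at least 17.1-fold higher in Mpb-gata1-2, from 0 reads in Mpb-gata1-1 (0.000276). Mp6g08810, one of the genes most like the 4 over the libraries, differed by 0.70 (0.0057).

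Of the genes of other lists named above, MpCAT1 differed by 1.12 (0.00255), MpCALEOSIN by 0.81 (0.0254), MpABA4 by 0.38 (0.00778), MpCAT2 by 0.32 (0.00210), MpCYP707-like by 0.25 (0.0111) and MpSNRK2A by 0.16 (0.0281). Others of these lists also differed, among them MpAPX2 by 0.51 (3.56e-05) and MpHSP90-1 by -0.59 (0.00532). Of the markers, MpGCAM1 differed by 0.75 (0.00766), MpBELL4 by 0.65 (0.0237), MpGRAS2 by 0.42 (0.00948) and MpRKD by 0.16 (0.0269). The gemma marker MpCLE1 went the other way, by -1.26 (4.60e-05). MpBELL1, with 1 read in Mpb-gata1-1, had a depth-scaled ratio of 183 (95% interval 32.5 to 7289, counting error only).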

How the results depend on the processing

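Against BoGa, the comparison on which the 4 genes were chosen, log2 changes in the mean of both mutants ran over the settings from 3.83 to 4.88 for MpLEA-like9, 3.50 to 4.30 for MpLEAL7, 3.04 to 4.25 for MpLEAL6 and 2.23 to 3.30 for MpLEA-like2. Between the mutants, leaving out 1 library gave 0.65 to 0.96 for MpLEA-like9, 0.42 to 0.59 for MpLEA-like2, 0.38 to 0.65 for MpLEAL6 and -0.31 to 0.016 for MpLEAL7. MpLEAL6 (0.49, adjusted p = 0.0119 by edgeR) did not pass at 0.01, and MpLEA-like9 did not pass with limma on log2(TPM + 0.1) (0.80, adjusted p = 0.0506).

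Replicate numbers, taken from the labels, showed no clear pairing of the libraries. Deviations of same-numbered libraries correlated at -0.116 to 0.161, and 1 of 9 pairs was over 0.1. In 5 of 18 comparisons with another group a library correlated best with its own number. With 3 libraries in each group these values cannot exclude a pairing. With the replicate block 3072 genes were higher and 3588 lower in the mean of both mutants, 1956 and 2109 between the mutants, and the difference of MpLEAL7 was -0.17 (adjusted p = 0.423 by edgeR). The block changed no call of the 4 genes. An adjusted p under 0.01 left 2157 genes higher in Mpb-gata1-1 than in BoGa, and between the mutants 1225 higher and 1387 lower, with 11 and 5 of the other LEA genes. Those LEA counts ran from 12 to 33 higher and 5 to 10 lower without 1 library. limma on log2(TPM + 1) moved the split of calls: 4543 genes were higher and 2555 lower in the mean of both mutants (64.0% higher, against 46.5%), 4470 and 2355 in Mpb-gata1-1, and 4114 and 2536 in Mpb-gata1-2.

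Some differences of neighbours and of like genes turned sign. Mp1g01150 ranged from -0.74 to 0.075 between the mutants without 1 library and stood at 0.039 with limma on log2(TPM + 0.1). Mp2g26370 ranged from -0.25 to 0.55. Mp2g26350, fitted at -2.36 (adjusted p = 0.0132 by edgeR) in the mean of both mutants with 0 reads in Mpb-gata1-1, stood at 0.0046 with limma on log2(RPKM + 1). Mp7g03340 stood at 0.048 and 0.049 with limma on log2 of TPM plus 1 or plus 0.1 and at 0.00015 with RPKM plus 1, and ranged from -0.034 to 0.018 between the mutants. The causes were not tested. Counts of 41 to 120 reads of each of the 4 genes per BoGa library limit the precision of the wild-type levels.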
